A study of Mus musculus with 17 samples.

Results

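Ccl2, Ccl7, Cxcl1, Cxcl5, Cxcl10, Cxcl12 and Cx3cl1 encode 7 chemokines that fibroblasts can make, and their transcript levels were followed across every array of a PDGF and kinase inhibitor series. A member was any probe set (a group of short probes reporting on 1 transcript) annotated to exactly 1 of these genes, 10 probe sets in the 8-array table and 11 in the 9-array table. The genes were 7 of 12393 named genes in the 8-array design and 7 of 8251 in the other. After probe sets in the lowest 30% by mean signal were left out, 5 member probe sets from 4 genes remained in the 8-array table, and 10 from 6 genes did so in the other. Cxcl1, Cxcl5 and Cxcl10 were the genes below this filter in the 8-array table, and Cxcl10 was below it in the 9-array table. The genes were selected on their measured PDGF responses and on the SU6656 ratios of Ccl2 and Ccl7, so those values are a description. Where calls on them are counted, the share of all probe sets called stands beside the count and nothing is read from it.

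The cells were NIH 3T3, an established mouse embryonic fibroblast line, made quiescent before treatment, and each condition of each experiment was measured on 1 array, 17 in all. The Src experiment (8 arrays, the 8-array table) held PDGF at 25 ng/ml for 1 h with SU6656 at 2 µM, with UO126 at 10 µM, with LY294002 at 7.5 µM or alone, and the same inhibitors or vehicle without PDGF. The MEK experiment (6 arrays) held PDGF at 25 ng/ml with UO126 at 10 µM, with PD98059 at 7.5 µM or alone, and the same inhibitors or no treatment without PDGF, and the PDGF time is not given in the sources used here. The repeat (3 arrays) held PDGF for 1 h with SU6656, PDGF alone and vehicle, and shares the 9-array table with the MEK experiment. Of the inhibitors, SU6656 acts on kinases of the Src family, LY294002 on PI3K, and UO126 and PD98059 both on MEK, which lies upstream of ERK. The labels do not state that the arrays are of separate cultures, and p-values therefore reflect no more than the spread among arrays, which may be technical.

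Chemokines are small, mostly secreted proteins that bind G protein-coupled receptors on leukocytes and guide their migration. Fibroblasts make them in wounds and inflamed tissue, where they recruit monocytes and neutrophils. In mouse 3T3 cells Ccl2 (first named JE) and Cxcl1 (KC) were originally isolated as early response transcripts of growth factor-treated fibroblasts, and NF-kappaB, AP-1 and other factors are known to act at chemokine promoters.

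The arrays were scaled alike, with medians from 133.7 to 198.4 signal units. Fibroblast marker genes were high in both tables, of which 14 of 16 and 15 of 16 passed the filter, and Col1a2, a type I collagen chain, lay at percentile 99.98 and 99.8 of mean signal. Ptprc, the pan-leukocyte marker CD45, was below the filter in both tables, at 2.4 to 32.8 units in the 8-array table. The summed signal of 9 leukocyte markers, of which 6 passed the filter, was 1340.2 to 1509.2 units on arrays with PDGF and 1550.8 to 1657.5 on arrays without in the 8-array table. Among the 9 arrays of the other table, where 5 passed, it was 1170.4 to 2004.1 and 1330.9 to 2181.7 units, so the groups overlapped. Limma called 0 leukocyte markers with PDGF, with 1 at an unadjusted p under 0.05 in each table. Of fibroblast markers, Pdgfra, a PDGF receptor gene, fell by 0.65 on the log2 scale (SE 0.117, limma adjusted p = 0.0187) in the 9-array table, and 0 were called in the 8-array table, with 2 at an unadjusted p under 0.05. Of 4 epithelial markers past the filter, Cldn3, a tight junction gene, rose by 1.42 on the log2 scale (SE 0.272, limma adjusted p = 0.0214) in the 8-array table, and it had 0.17 (SE 0.228) in the other, and the part of other cell types in the chemokine values was not tested.

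Promoter sequences were available in a RefSeq table (assembly GRCm38.p6, 250 bases before to 50 after each gene's start) for 4 of the 7 genes, Cxcl1, Cxcl10, Cxcl12 and Cx3cl1. Of these, 3 CXC genes are shown, because Cxcl1 was called higher with PDGF in the 9-array table, while Cxcl12 was not called and Cxcl10 was below the filter. Capitals mark every match to an NF-kappaB-type motif, which is GGGA, any 4 bases and CC on either strand, or to an AP-1-type motif, TGANTCA on either strand.
Cxcl1 (chr5:90890995-90891294, plus strand): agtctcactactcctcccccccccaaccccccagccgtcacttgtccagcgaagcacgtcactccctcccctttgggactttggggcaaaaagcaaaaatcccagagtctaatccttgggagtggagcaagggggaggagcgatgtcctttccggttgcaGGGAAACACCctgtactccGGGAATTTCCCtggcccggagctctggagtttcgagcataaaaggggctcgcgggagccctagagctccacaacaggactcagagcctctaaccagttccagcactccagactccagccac
Cxcl10 (chr5:92348840-92349139, minus strand): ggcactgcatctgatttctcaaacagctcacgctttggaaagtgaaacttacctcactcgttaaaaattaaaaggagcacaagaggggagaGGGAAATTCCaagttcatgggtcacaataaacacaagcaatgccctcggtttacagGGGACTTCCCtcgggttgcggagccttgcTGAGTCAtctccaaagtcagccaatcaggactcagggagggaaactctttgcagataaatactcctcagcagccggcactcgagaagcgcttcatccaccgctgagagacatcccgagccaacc
Cxcl12 (chr6:117168285-117168584, plus strand): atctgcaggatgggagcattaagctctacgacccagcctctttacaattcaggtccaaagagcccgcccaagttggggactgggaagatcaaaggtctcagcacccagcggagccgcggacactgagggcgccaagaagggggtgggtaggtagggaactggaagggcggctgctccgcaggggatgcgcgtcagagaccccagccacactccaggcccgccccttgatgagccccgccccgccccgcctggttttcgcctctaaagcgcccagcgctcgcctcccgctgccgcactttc
The Cxcl1 window holds 3 matches to the NF-kappaB-type motif, beginning 90, 71 and 70 bases before the start, of which the last 2 overlap each other. The Cxcl10 window holds 2, beginning 159 and 103 bases before the start, and 1 AP-1-type match 74 bases before it. No match was found in the Cxcl12 or Cx3cl1 windows. Of 27025 promoter windows of the same length, 20.5% hold the first motif and 7.93% the second, so a match is common and is given only as a description. In the same assembly Ccl2 and Ccl7 are neighbours on chromosome 11 with Ccl11 next, and Cxcl1 (between Cxcl15 and Cxcl2), Cxcl5 (beside Ppbp) and Cxcl10 all lie on chromosome 5. Cxcl12 lies on chromosome 6, and Cx3cl1 on chromosome 8 between Ccl22 and Ccl17.

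Ccl2 and Ccl7, ligands that attract monocytes through CCR2 and related receptors, were higher on every PDGF array of the Src experiment than on any array without PDGF. The signal of Ccl2 (probe set 1420380_at) was 208.8 units with PDGF and SU6656, 493.3 with PDGF and UO126, 936.6 with PDGF and LY294002 and 665.7 with PDGF alone. Without PDGF it was 80.5 with SU6656, 24.0 with UO126, 70.4 with LY294002 and 23.4 with vehicle. The groups did not overlap, and PDGF with SU6656 gave the lowest of the 4 PDGF values. Ccl7 (1421228_at) had 134.0 units with PDGF and SU6656, 797.4 with PDGF and UO126, 999.2 with PDGF and LY294002 and 804.4 with PDGF alone, against 6.7 with SU6656, 42.7 with UO126, 15.5 with LY294002 and 63.4 with vehicle. Its groups were also apart, with PDGF and SU6656 again lowest among the PDGF arrays. Both genes therefore had no overlap between 4 arrays with and 4 without PDGF, as had 3.44% of all probe sets kept in that table with the PDGF arrays above. This contrast was known when the genes were chosen, and both passed the filter on mean signal through these PDGF arrays.

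**Figure D1:**
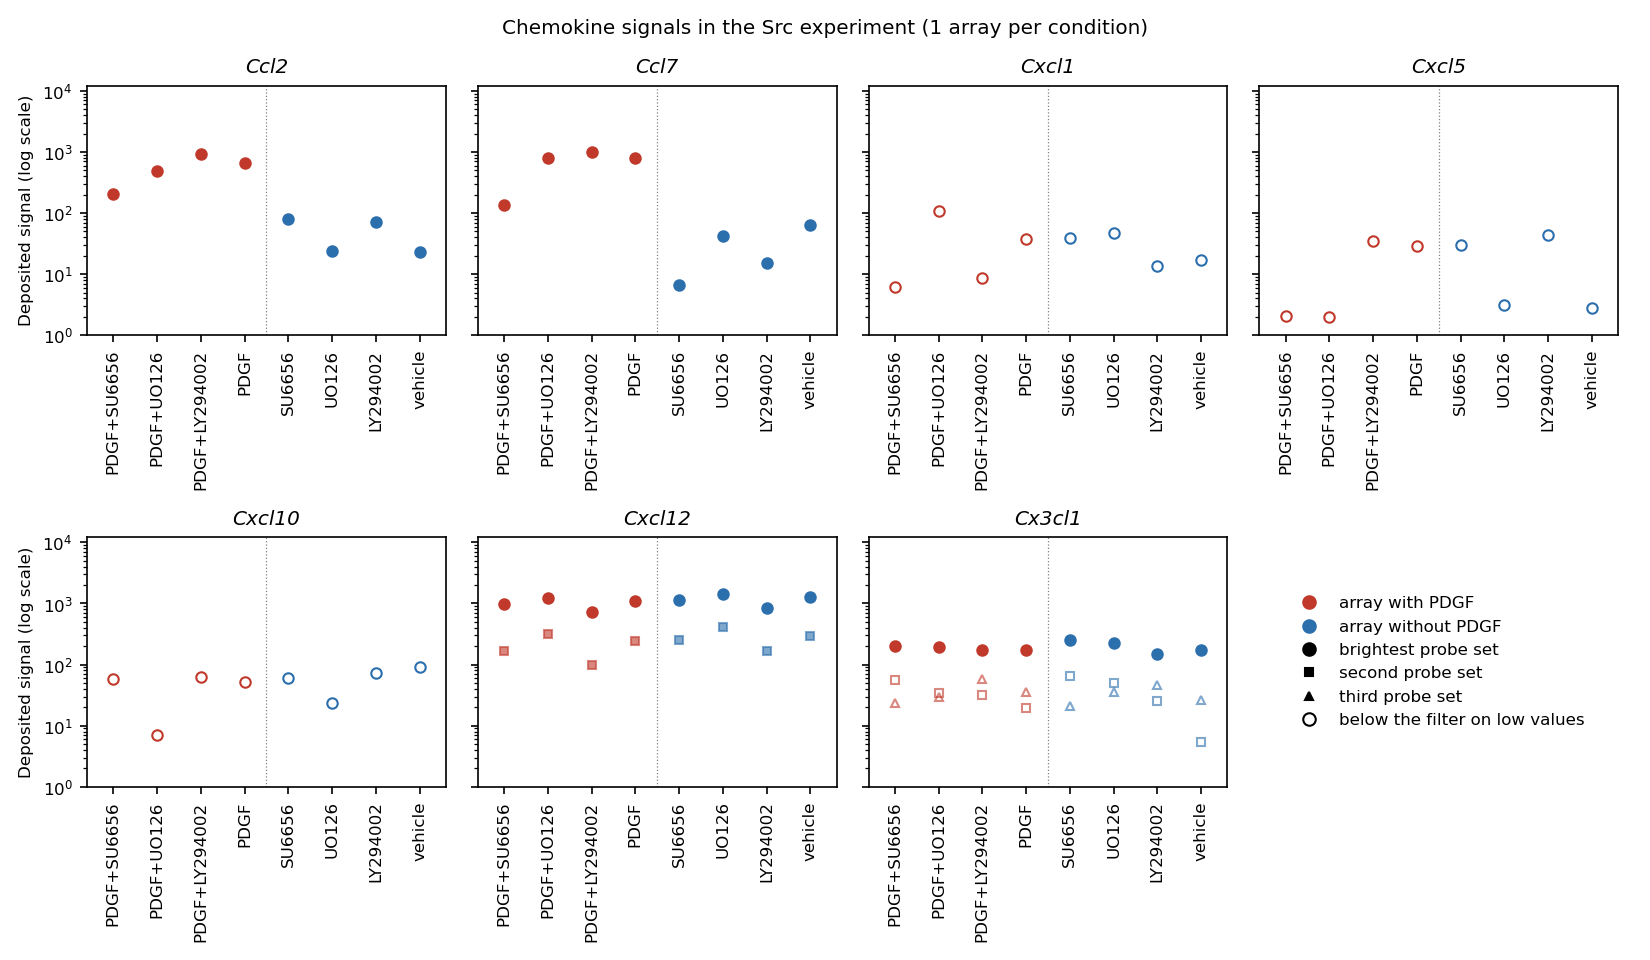
Deposited signal (log axis) of each chemokine gene on the 8 arrays of the Src experiment, PDGF arrays in red left of the dotted line and arrays without PDGF in blue, with open symbols for probe sets below the filter on low values. Ccl2 and Ccl7 were above all arrays without PDGF on all 4 PDGF arrays and lowest among these with SU6656, at 208.8 and 134.0 units, while Cxcl12 and Cx3cl1 overlapped between the groups.

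On the other array design the same genes were measured with and without MEK inhibitors and once more with SU6656. In the MEK experiment Ccl2 (102736_at) had 6427.6 units with PDGF and UO126, 6481.3 with PDGF and PD98059 and 6005.7 with PDGF alone, against 929.7, 837.1 and 652.7 with UO126, PD98059 and no treatment. Ccl7 (94761_at) had 3515.6, 2684.4 and 2321.5 units with PDGF and UO126, PDGF and PD98059, and PDGF alone, against 311.9, 360.0 and 271.8 with UO126, PD98059 and no treatment. On these single arrays both signals were higher with PDGF and either MEK inhibitor than with PDGF alone. In the repeat Ccl2 had 424.6 units with PDGF and SU6656 and 2730.3 with PDGF, against 19.5 with vehicle. Ccl7 had 410.2 units with PDGF and SU6656 and 2606.6 with PDGF, against 79.6 with vehicle. SU6656 thus left 15.6% of the PDGF signal of Ccl2 and 15.7% of that of Ccl7 in the repeat, and 31.4% and 16.7% in the Src experiment, and in both experiments the signals with PDGF and SU6656 stayed above vehicle.

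Cxcl1, a neutrophil attractant that acts through CXCR2, was measurable only on the 9-array design. Its brightest probe set (95348_at) had 2504.2 units with PDGF and UO126, 1961.6 with PDGF and PD98059 and 1694.4 with PDGF, against 845.1, 947.7 and 424.2 with UO126, PD98059 and no treatment. All 3 PDGF arrays of the MEK experiment were above the 3 others, and the untreated array was the lowest. In the repeat it had 61.4 units with PDGF and SU6656 and 156.8 with PDGF, against 12 with vehicle. A second probe set for Cxcl1 (95349_g_at) gave the same order of PDGF above no PDGF in the MEK experiment, but in the repeat it had 38.7 units with PDGF and SU6656 and 73.9 with PDGF, against 109.6 with vehicle. The 2 probe sets therefore disagreed on the PDGF response in the repeat but both put the array with PDGF and SU6656 below the PDGF array. In the Src experiment Cxcl1 was below the filter, at 6.1 to 106.2 units with PDGF and 13.7 to 47.9 without, and the groups overlapped.

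Cxcl5, another CXCR2 ligand, moved less. In the MEK experiment its signal (98772_at) was 374.5 units with PDGF and UO126, 275.5 with PDGF and PD98059 and 466.3 with PDGF, against 263.0, 231.1 and 221.4 with UO126, PD98059 and no treatment. In the repeat it was 27.6 with PDGF and SU6656 and 66.3 with PDGF, against 54.0 with vehicle. The PDGF arrays of the MEK experiment were all above the others, but the gap between 275.5 and 263.0 units was small, and in the repeat the PDGF array and the vehicle array were close. In the Src experiment Cxcl5 was below the filter at 2.0 to 34.7 units with PDGF and 2.8 to 43.0 without. Ccl2, Ccl7, Cxcl1 and Cxcl5 were the 4 of 6 member genes past the filter whose 3 PDGF arrays lay above the 3 others in the MEK experiment, as did 7.33% of all probe sets kept.

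**Figure D2:**
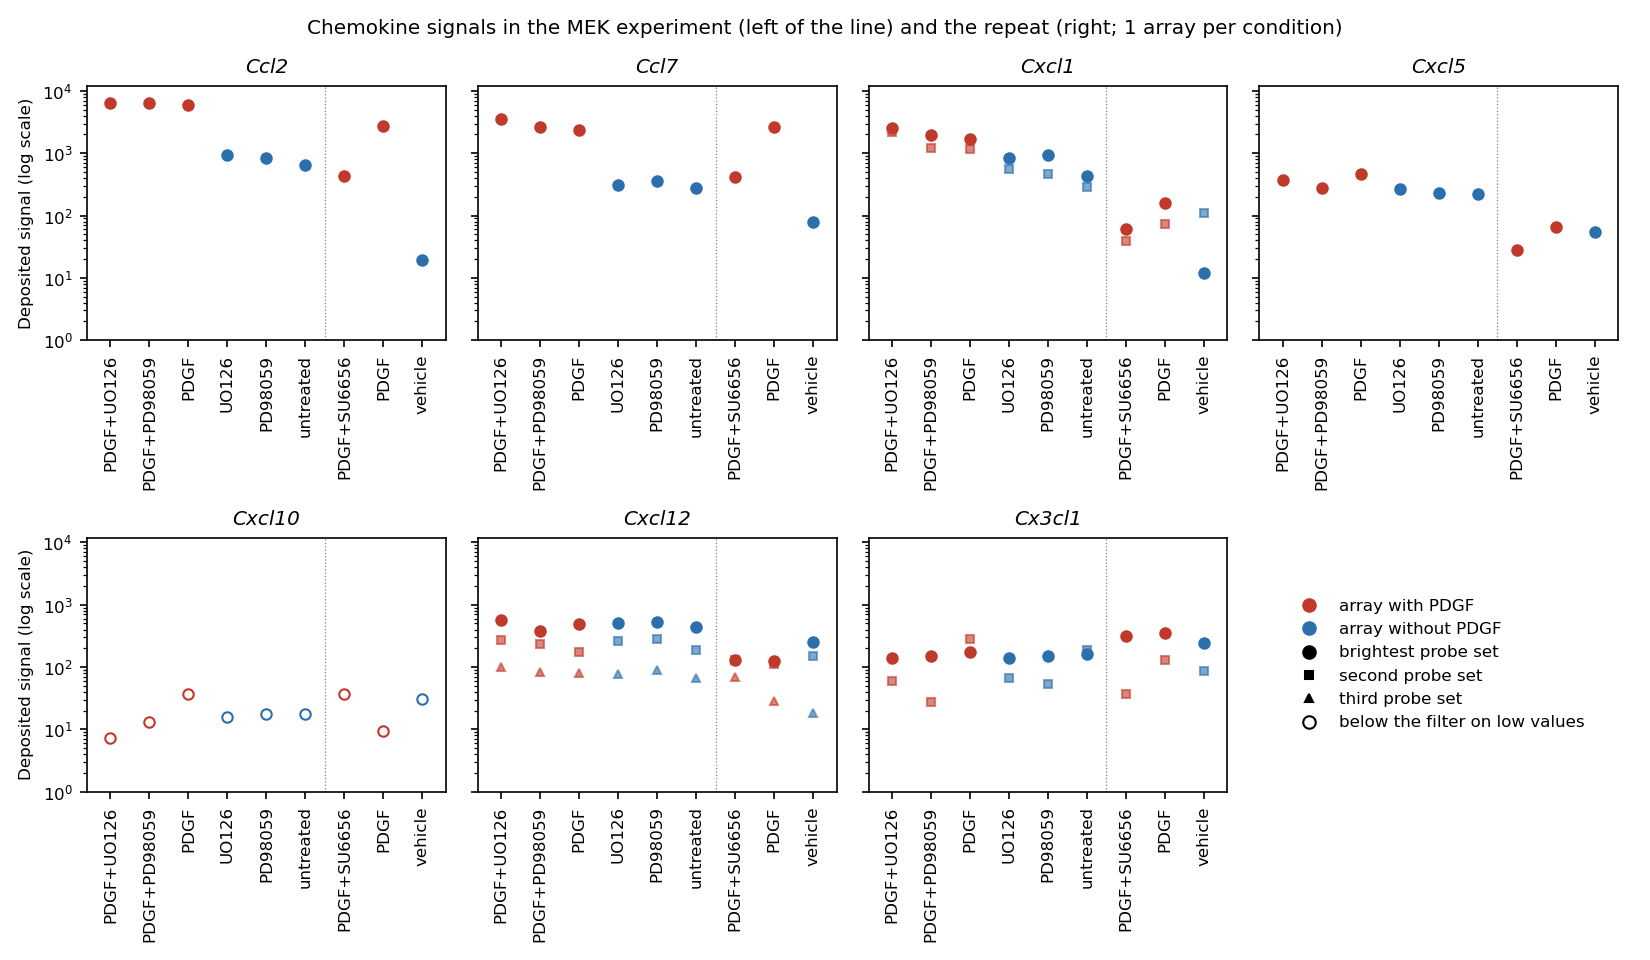
Deposited signal (log axis) of each chemokine gene in the MEK experiment (6 arrays, left of the dotted line) and the repeat (3 arrays, right), red for arrays with PDGF and blue for arrays without, with a symbol for each probe set and open symbols below the filter. The quiescent signal of Ccl2 was 652.7 units on the untreated array of the MEK experiment and 19.5 on the vehicle array of the repeat, and in the repeat SU6656 with PDGF gave 424.6 units against 2730.3 with PDGF.

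Cxcl12, the CXCR4 ligand that stromal fibroblasts make constitutively, was well measured on both designs and did not follow Ccl2 and Ccl7. In the Src experiment its brightest probe set (1448823_at) had 962.7 units with PDGF and SU6656, 1221.0 with PDGF and UO126, 724.6 with PDGF and LY294002 and 1117.3 with PDGF, against 1134.5 with SU6656, 1437.6 with UO126, 835.5 with LY294002 and 1286.4 with vehicle. The groups with and without PDGF overlapped, but within each of the 4 pairs the PDGF array was the lower, and both LY294002 arrays were below all others. The share of all probe sets with either pattern was not counted, and nothing is read from them. In the MEK experiment its brightest probe set there (160511_at) had 377.5 to 568.4 units with PDGF and 431.6 to 523.7 without, which overlapped. In the repeat it had 130.2 with PDGF and SU6656 and 123.0 with PDGF, against 248.8 with vehicle.

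Cx3cl1, the transmembrane chemokine fractalkine, was nearly level across treatments at its brightest probe sets. It ranged over 172.1 to 198.5 units with PDGF and 149.6 to 249.7 without in the Src experiment (1415803_at), and over 141.0 to 177.2 and 137.7 to 160.2 in the MEK experiment (98008_at). In the repeat it had 315.4 with PDGF and SU6656 and 354.5 with PDGF, against 241.2 with vehicle. A dimmer probe set for the gene on the 9-array design (161752_r_at) behaved differently, with 59.7 units with PDGF and UO126, 27.4 with PDGF and PD98059 and 279.8 with PDGF, against 66.5 with UO126, 53.0 with PD98059 and 186.1 with no treatment. Cxcl10, an interferon-inducible ligand of CXCR3, was dim everywhere, at 7.1 to 61.6 units with PDGF and 23.7 to 92.9 without in the Src experiment, and at 7.4 to 37.5 and 15.6 to 30.5 across the 9-array table.

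As differences on the scale of log2(signal plus the table's 20th percentile, 36.3 or 21.2 units) after quantile normalisation, which understates changes of dim probe sets, the PDGF response of Ccl7 was 3.09 in the Src experiment, 2.96 in the MEK experiment and 4.75 in the repeat (mean 3.60 ± 0.997 SD, n = 3 experiments, a 12.1-fold mean). The Ccl2 response was 3.56, 3.15 and 6.07 in the same order. Cxcl1 had 0.47, where it was below the filter, then 1.91 and 2.32. Mean responses of the other genes were smaller. Cxcl5 had 0.74, below the filter, then 0.98 and 0.06, an average of 0.59 ± 0.48 (SD, n = 3 experiments). The averages were 0.24 ± 0.26 for Cx3cl1, with 3 positive values, and −0.33 ± 0.54 for Cxcl12 and −0.29 ± 0.74 for Cxcl10, which both changed sign (SD, n = 3 experiments each).

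Over the 4 pairs of each table, with and without PDGF in the same experiment and inhibitor, limma called Ccl2 and Ccl7 higher among 4 member genes past the filter in the 8-array table, where 2.51% of all probe sets were called higher and 0.808% lower. Ccl2, Ccl7 and Cxcl1 were called higher among 6 in the 9-array table, where 1.46% were called higher and 0.265% lower. These calls used the contrast that helped to choose the genes and are given as a description. The filter used the mean of all arrays. Without PDGF in the 8-array table, Ccl2 had 23.4 to 80.5 units and Ccl7 6.7 to 63.4. Cxcl10, which did not pass, had 23.7 to 92.9. Ccl2 and Ccl7 thus passed through their PDGF arrays, and their share of the 4 genes was partly fixed by the filter. The fitted log2 effect of PDGF was 2.79 (SE 0.343) for Ccl2 and 3.24 (SE 0.308) for Ccl7 in the 8-array table. It was 3.73 (SE 0.435), 3.46 (SE 0.264) and 1.69 (SE 0.189) for Ccl2, Ccl7 and Cxcl1 in the 9-array table. For Cxcl12 it was −0.23 (SE 0.0765) and −0.26 (SE 0.189) in the 8-array and 9-array tables, for Cx3cl1 0.01 (SE 0.153) and 0.19 (SE 0.172), and for Cxcl5 0.44 (SE 0.186) in the 9-array table. The second Cxcl1 probe set, at 1.15 (SE 0.335), was not called.

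Whether lowering by the Src family inhibitor extended to other chemokines was examined with ratios of PDGF with inhibitor over PDGF alone inside an experiment. SU6656 gave log2 −1.48 in the Src experiment and −2.70 in the repeat for Ccl2, and −2.28 and −2.67 for Ccl7. An additive fit of the 8-array table, which takes the SU6656 arrays with and without PDGF together, gave −0.29 (SE 0.485) for Ccl2 and −1.76 (SE 0.435) for Ccl7, and its SU6656 minus UO126 values were −0.06 and −1.52. The quiescent Ccl2 signal was higher with SU6656 than with vehicle, 80.5 against 23.4 units, and this enters that fit. On this scale, which understates changes of dim signals, Cxcl1 had smaller differences. They were −1.07 at its brightest probe set and −0.53 at the second in the repeat, and −0.80 at a dim probe set in the Src experiment. Cxcl5 had −0.69 in the repeat and −0.77 below the filter in the Src experiment. With PDGF and SU6656 against PDGF, the repeat had 61.4 against 156.8 units at the brightest Cxcl1 probe set and 27.6 against 66.3 for Cxcl5. The Src experiment had 6.1 against 37.6 and 2.1 against 28.8 units, below the filter. The size of the gap to Ccl2 and Ccl7 therefore depends on the scale. Cxcl12 had −0.22 in the Src experiment and 0.14 in the repeat, and Cx3cl1 had 0.19 and −0.15, so neither kept a sign at its brightest probe sets. Dimmer probe sets past the filter gave other values. That of Cx3cl1 in the repeat (161752_r_at) had 37.5 units with PDGF and SU6656 against 129.4 with PDGF, a log2 ratio of −1.26, beyond the −1.07 of Cxcl1. For Cxcl12 they gave 0.23 (100112_at) and 0.96 (162234_f_at) in the repeat and −0.47 (1417574_at) in the Src experiment. Cxcl10, below the filter in both, had 0.10 and 1.03.

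Of the 5 genes whose SU6656 response had not been used to choose them, 4 could be tested in at least 1 table and none passed. With 3 residual degrees of freedom and the quiescent arrays of a table treated as 1 group, limma called 0% of probe sets for SU6656 in either table, although 462 of 15838 and 500 of 8695 had an unadjusted p under 0.05. In the 9-array table the fitted SU6656 effect was −0.74 for Cxcl1 (SE 0.486, 95% interval −1.84 to 0.348, limma adjusted p = 0.962). For Cxcl5 it was −0.94 (SE 0.362, 95% interval −1.75 to −0.124, limma adjusted p = 0.821). With the UO126 and PD98059 arrays taken as replicates, the values were −0.96 for Cxcl1 (95% interval −1.55 to −0.375) and −0.92 for Cxcl5 (−1.76 to −0.0749). In a fit that gives each experiment its own PDGF effect, added after the responses were seen to differ, the values were −1.07 (95% interval −2.23 to 0.0994, limma adjusted p = 0.738) and −0.69 (−1.46 to 0.0812, adjusted p = 0.741). Over all alternatives the adjusted p was 0.573 to 1.00 for Cxcl1 and 0.67 to 1.00 for Cxcl5. The dim Cx3cl1 probe set gave −1.57 (SE 0.658, limma adjusted p = 0.836). For Cxcl12 and Cx3cl1 the fitted effects at the brightest probe sets of the 8-array table were −0.22 (95% interval −0.97 to 0.54) and 0.19 (−0.67 to 1.05), and at the second Cxcl12 probe set −0.47 (−1.54 to 0.60). The interval of Ccl2 in the same fit, −2.69 to −0.28, overlaps all 3. That of Ccl7, −3.50 to −1.05, overlaps only the interval of the second Cxcl12 probe set, and the lowering of Ccl7 was known when it was chosen.

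**Figure D3:**
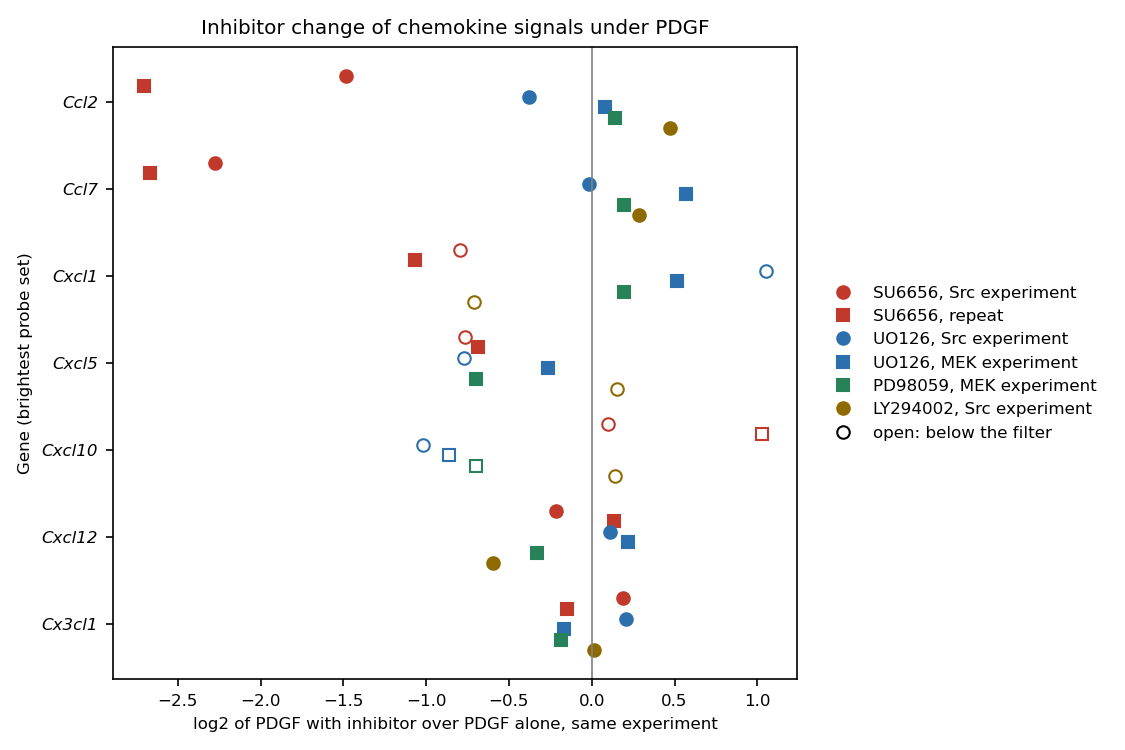
Log2 ratio of PDGF with inhibitor over PDGF alone within an experiment for each chemokine gene (rows, brightest probe set), coloured by inhibitor, with circles for the Src experiment, squares for the other experiments and open symbols below the filter. SU6656 lay at −1.48 and −2.70 for Ccl2 and −2.28 and −2.67 for Ccl7, left of every other point of those genes.

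To place the values of Ccl2 and Ccl7 among other PDGF-responsive genes, the 171 genes at least 2-fold up in the MEK experiment, whose arrays enter neither SU6656 ratio, were taken from 5537 genes kept in both tables. Their median SU6656 ratio was −0.20 in the Src experiment and −0.24 in the repeat, against 0.01 and 0.02 for all 5537 genes. At least 2-fold lower in both experiments were 5 of the 171 (2.92%), which were Ccl7, Ccl2, Fos, the nocturnin gene Noct and the trophic factor gene Gdnf, against 0.181% of all genes. Without Ccl2 and Ccl7, whose SU6656 ratios helped to choose them, 3 of 169 genes were. Ranked by the weaker of their 2 values, Ccl7 was 1st and Ccl2 3rd of all 5537 genes. Between them stood Bcl3, with −2.16 and −2.51. Fos, an AP-1 component, had −1.35 and −1.26, Noct −1.31 and −1.10, and Gdnf −2.87 and −1.03. The ranks of Ccl2 and Ccl7 are descriptions, since their lowering by SU6656 was known when they were chosen.

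**Figure D4:**
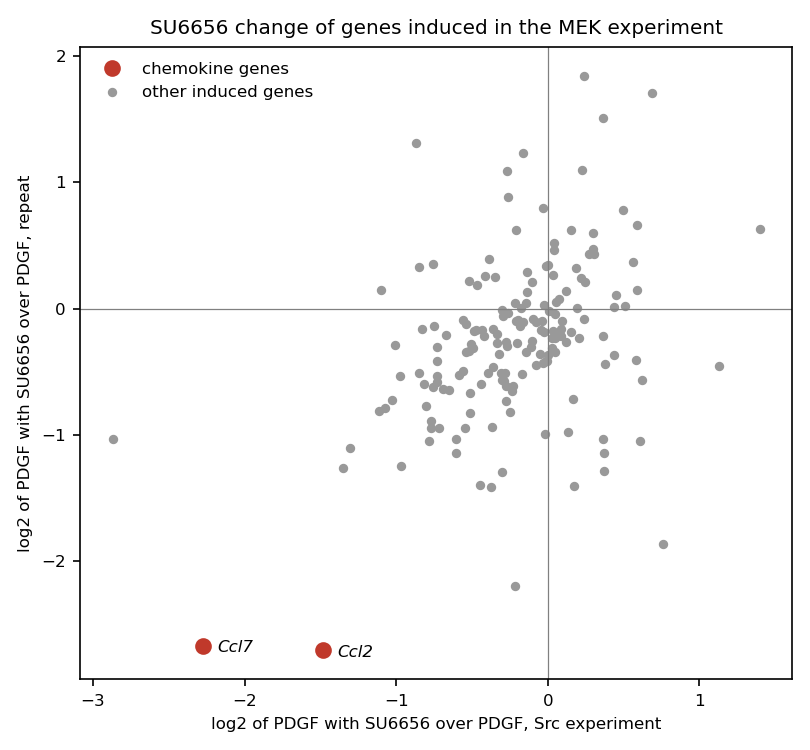
SU6656 change under PDGF (log2 of PDGF with SU6656 over PDGF) in the Src experiment (x axis) and the repeat (y axis) for the 171 genes at least 2-fold up with PDGF in the MEK experiment. Ccl7 at −2.28 and −2.67 and Ccl2 at −1.48 and −2.70 lie at the lower left, away from the main cloud around −0.20 and −0.24.

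With the MEK inhibitors the ratios of Ccl2, Ccl7 and Cxcl1 at the brightest probe sets past the filter lay between −0.38 and 0.57, and the second Cxcl1 probe set had 0.86 with UO126 and 0.06 with PD98059. UO126 under PDGF gave log2 −0.38 in the Src experiment and 0.08 in the MEK experiment for Ccl2, −0.02 and 0.57 for Ccl7, and 0.52 for Cxcl1 in the MEK experiment. PD98059, at its own dose, gave 0.14, 0.19 and 0.19 for Ccl2, Ccl7 and Cxcl1. Cxcl5 had −0.26 with UO126 and −0.70 with PD98059. In limma fits 0% of probe sets were called for UO126 in either table or for PD98059, with 660, 502 and 497 at an unadjusted p under 0.05. The 95% intervals, with a PDGF effect for each experiment, were −0.55 to 0.71 (UO126) and −0.49 to 0.77 (PD98059) for Ccl2, and −0.0231 to 1.16 and −0.40 to 0.79 for Ccl7. When 1 PDGF effect was shared by both experiments of the 9-array table, the fitted UO126 value of Ccl2 was −0.88 (SE 0.779, limma adjusted p = 0.959) against an array ratio of 0.08, and that fit also draws on the larger PDGF response of the repeat.

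Quiescent cells were also given the MEK inhibitors. Without PDGF, Cxcl1 was higher with UO126 (845.1 units) and PD98059 (947.7) than with no treatment (424.2), log2 ratios of 0.95 and 1.06. Its PDGF response was 1.48 over UO126 alone and 1.05 over PD98059 alone, against 1.91 over no treatment. With both inhibitors taken as replicates, the quiescent effect on Cxcl1 was 1.10 (SE 0.225, limma adjusted p = 0.267) and the interaction with PDGF −0.85 (SE 0.284, adjusted p = 0.906), neither past the threshold, and 0.0115% of all probe sets were called for the quiescent effect and 0% for the interaction, with 630 and 423 at an unadjusted p under 0.05. The second Cxcl1 probe set had 563.5 units with UO126 and 460.3 with PD98059, against 286.4 with no treatment. Its fitted quiescent effect was 0.14 (SE 0.519, limma adjusted p = 0.987) and its interaction 0.93 (SE 0.656, adjusted p = 0.999). Within the MEK experiment, its quiescent log2 ratios were 0.92 with UO126 and 0.60 with PD98059. Its PDGF response there was 1.85 over UO126 alone and 1.37 over PD98059 alone, against 1.91 over no treatment. At the brightest probe set the response over either inhibitor was also the lower. Each of these is a difference of single arrays, and 1.85 and 1.91 are close. For both probe sets that fit also draws on the repeat, where the second fell with PDGF and the brightest rose. The fitted interactions, −0.85 and 0.93, have opposite signs, and neither sign is read. The dim Cx3cl1 probe set named above gave −2.17 under PDGF in that fit (SE 0.405, limma adjusted p = 0.200), while the brighter one gave −0.29 (SE 0.254, adjusted p = 0.863).

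With LY294002 the log2 ratios of Ccl2 and Ccl7 under PDGF were 0.47 (95% interval −0.74 to 1.68) and 0.29 (−0.94 to 1.51). Cxcl12 had the lowest ratio under PDGF among member genes past the filter, at −0.60, and it had −0.61 without PDGF, where Ccl7 was lower, at −0.90 between dim signals of 15.5 and 63.4 units. The second Cxcl12 probe set (1417574_at) had 99.9 units with PDGF and LY294002 against 242.5 with PDGF, and 164.9 with LY294002 against 290.3 with vehicle. In the fit of that array under PDGF, Cxcl12 did not pass (limma adjusted p = 1), and 0% of probe sets were called, with 736 at an unadjusted p under 0.05. In the fit that takes both LY294002 arrays against both controls, the effect was −0.60 (95% interval −0.85 to −0.36, limma adjusted p = 0.0509) at the brightest probe set and −0.85 (−1.30 to −0.41, adjusted p = 0.105) at the second. Neither passed the threshold of 0.05, and no member gene was called in that fit, where 0.511% of all probe sets were. Over all alternatives the adjusted p for the brightest probe set was 0.0509 to 1. In the same experiment SU6656 minus LY294002 under PDGF was −1.95 for Ccl2 and −2.56 for Ccl7, and SU6656 minus UO126 was −1.10 and −2.26, given without a test because the SU6656 array is in each.

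The quiescent signal of several chemokine genes differed between the experiments of the 9-array table, a comparison made after the values were seen. Ccl2 had 652.7 units on the untreated array of the MEK experiment, against 19.5 on the vehicle array of the repeat, a log2 difference of 4.03. Cxcl1 had 424.2 against 12 units (3.75), Cxcl5 221.4 against 54.0 (1.72) and Ccl7 271.8 against 79.6 (1.60). Cxcl12 differed by 0.87 and Cx3cl1 by −0.42. Of all probe sets kept, 5.93% were at least 2-fold higher on the untreated array of the MEK experiment. On the arrays with PDGF alone, the differences were 1.11 for Ccl2, 3.35 for Cxcl1, 2.63 for Cxcl5 and −0.19 for Ccl7. Each side is 1 array, and experiment, kind of control and any difference in time cannot be told apart.

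The larger PDGF response of Ccl2 in the repeat, 6.07 against 3.15 in the MEK experiment, stood beside a lower basal signal in the repeat, and its PDGF signal was 2730.3 units in the repeat and 6005.7 in the MEK experiment. For Ccl7 the PDGF signals were 2606.6 and 2321.5 units.

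Expressed instead as the PDGF response over the same inhibitor alone, SU6656 left a log2 response of 1.18 for Ccl2 and 2.06 for Ccl7, against 3.56 and 3.09 over vehicle. For Ccl7 the deposited signals give the opposite order, 20-fold over SU6656 alone against 12.7-fold over vehicle, since 6.7 units lie below the 36.3 added before the log, so the direction of that difference depends on the scale. For Ccl2 they give 2.59-fold against 28.4-fold. The quiescent signal of Ccl2 was 80.5 units with SU6656 against 23.4 with vehicle, both dim, and that of Ccl7 was 6.7 against 63.4. The response was 3.27 and 3.54 over UO126 and 3.16 and 4.28 over LY294002 for Ccl2 and Ccl7 in the Src experiment, and 2.73 and 3.33 over UO126 and 2.99 and 2.81 over PD98059 in the MEK experiment.

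Genes with the pattern most like that of Ccl2 and Ccl7 were sought by the root-mean-square difference of 14 log2 ratios over each experiment's basal array. The nearest of 5537 genes to the mean of both were Phlda1 at 0.658, a pleckstrin-homology-like protein gene, Junb, an AP-1 component, at 0.752, Ptgs2, the inducible cyclooxygenase, at 0.759, Noct at 0.764 and Egr2, a zinc finger factor, at 0.802. The median over all genes was 2.78. Ccl2 and Ccl7 differed from each other by 0.989. That value is a distance between genes, so it cannot be ranked against the distances of other genes to the mean of both. The SU6656 ratios of Phlda1 were −0.78 and −1.05, of Junb −0.61 and −1.03, and of Ptgs2 −0.77 and −0.95. Those of Noct were −1.31 and −1.10, and those of Egr2 −0.44 and −0.60. The SU6656 arrays enter the distance, and Ccl2 and Ccl7 were chosen with their SU6656 ratios known. These values are therefore a description and are not compared with those of Ccl2 and Ccl7.

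The rest of the chemokine family showed no response to PDGF past the threshold. Of 31 other ligand genes, 12 of 27 on the array passed the filter in the 8-array table and 8 of 18 in the 9-array table, and limma called 0 of them with PDGF, with 0 at an unadjusted p under 0.05 in both tables. Of all probe sets kept, 3.31% and 1.73% were called. Their median PDGF effect was 0.00 in the 8-array table, with a range of −0.35 to 0.39, and 0.11 in the 9-array table, with a range of −0.44 to 0.45, against −0.03 over all probe sets in both. For SU6656 under PDGF their medians were −0.03 and −0.03, and 0 were called or had an unadjusted p under 0.05. Chemokine receptor genes, of which 11 and 5 passed the filter, had 0 calls by limma with PDGF, with 2 and 1 at an unadjusted p under 0.05.

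**Figure D5:**
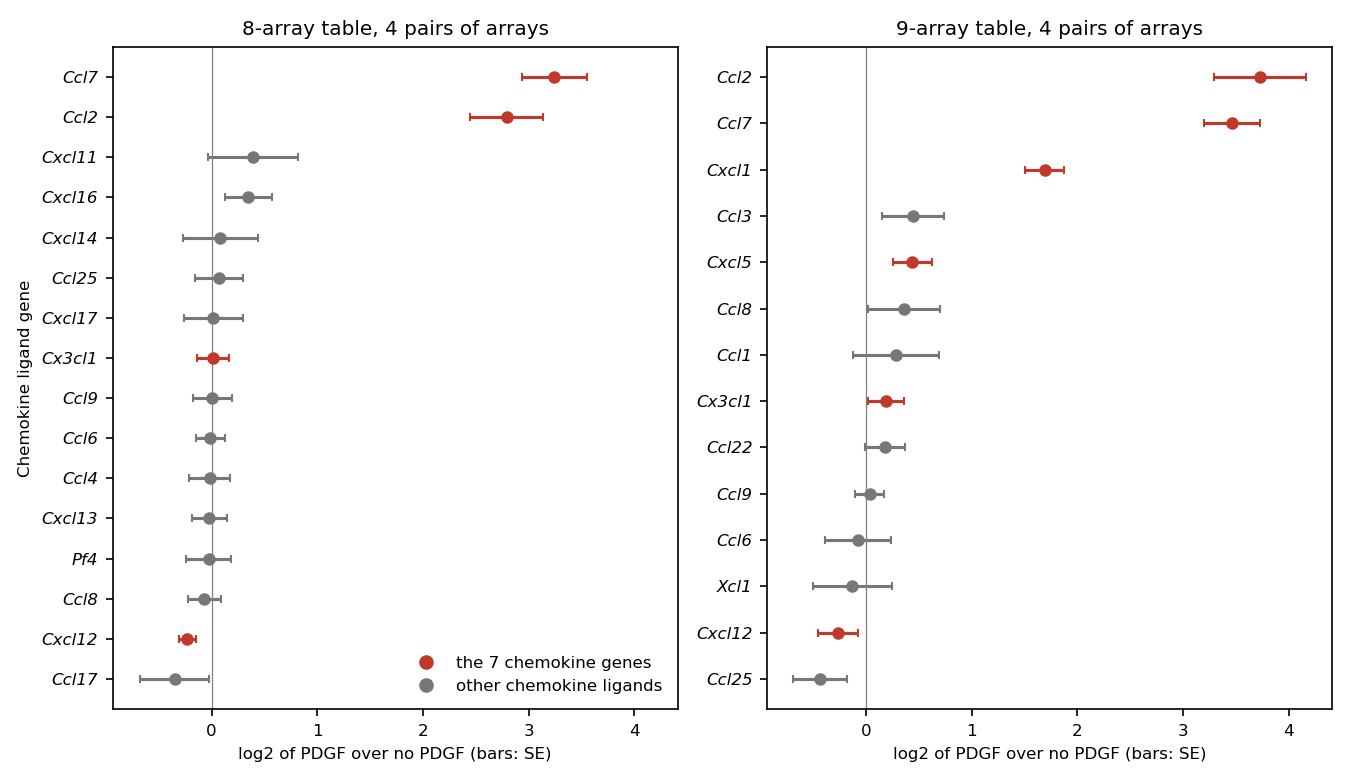
Fitted log2 effect of PDGF (x axis, bars are SE) for every chemokine ligand gene past the filter in the 8-array table (left) and the 9-array table (right), each from 4 pairs of arrays, with the 7 chosen genes in red and other ligands in grey. Ccl2 and Ccl7 stand at 2.79 to 3.73 and Cxcl1 at 1.69, while the other ligands lie between −0.44 and 0.45.

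Genes that regulate or accompany chemokine expression were taken from lists chosen with earlier results of these data known. Of NF-kappaB subunits and inhibitors, 2 of 12 rose in the 8-array table and 2 of 10 in the other, and none fell, where 2.51% and 1.46% of all probe sets were called higher. Nfkbiz, a nuclear IkappaB protein that acts as a coactivator, rose by 1.01 (SE 0.185, limma adjusted p = 0.0164) and 1.71 (SE 0.195, adjusted p = 0.000817). Bcl3, a related nuclear IkappaB protein, rose by 1.62 (SE 0.36, limma adjusted p = 0.0442) and 1.68 (SE 0.218, adjusted p = 0.00194). The SU6656 ratio of Bcl3 was −2.16 in the Src experiment and −2.51 in the repeat, neither past the threshold in its fit (limma adjusted p = 1 and 0.56). With SU6656, PDGF changed Bcl3 by 0.21 over SU6656 alone, against 2.40 over vehicle. Of other inflammatory mediators 2 of 10 and 2 of 8 rose, beside the same 2.51% and 1.46%, Ptgs2 (3.48, SE 0.0988, limma adjusted p = 1.97e-07, and 3.44, SE 0.197, adjusted p = 5.91e-06) and the macrophage growth factor Csf1 (1.18, SE 0.144, and 1.56, SE 0.144).

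Of genes for chemokine processing and transcript turnover, 4 of 11 rose in the 8-array table and 3 of 11 in the other, against 2.51% and 1.46% of all probe sets. Zfp36, Zfp36l1 and Zfp36l2, 3 genes of a family that binds AU-rich elements and promotes mRNA decay, each rose. Zfp36 had 1.01 (SE 0.12) and 1.49 (SE 0.284), and Zfp36l1 had 1.53 (SE 0.117) and 1.73 (SE 0.1). Zfp36l2 had 1.13 (SE 0.113) and 1.09 (SE 0.0789). Sdc4, a heparan sulphate proteoglycan, had 1.08 (SE 0.0878), past the threshold, on the 8-array design and −0.15 (SE 0.134) on the other. Of interferon response genes, the group to which Cxcl10 belongs, 0 of 9 and 0 of 7 were called by limma, with 2 and 1 at an unadjusted p under 0.05.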

How the data were processed

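RNA of NIH 3T3 cells was measured on 17 oligonucleotide arrays of 2 designs. The deposited intensity of each probe set is a positive linear signal. Trimmed by 2% at both ends, the means of all arrays were 500.2 to 500.4, which shows that the authors had scaled the arrays alike. The software and genome build behind these values were not given in the sources used here. The number of arrays limits the precision.

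The tables hold 22690 and 12488 probe sets, of which 64 and 66 controls were left out, and 20393 and 10855 had 1 gene in the platform annotation, 691 and 396 several and 1606 and 1237 none listed. Symbols were updated through Entrez IDs against a RefSeq table (GRCm38.p6), for 20364 and 10839 probe sets. Values were quantile normalised within each table and transformed to log2 of the value plus the 20th percentile, and 15838 and 8695 probe sets were kept once the dimmest 30% had been removed. The brightest probe set led for each gene, and levels were not compared between probe sets or tables.

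The models used limma 3.58.1 (R 4.3.3) with lmFit and trended eBayes. P-values were adjusted by Benjamini-Hochberg over every probe set kept, with a threshold of 0.05. The PDGF effect used 4 pairs per table with the pair as a block, since the 2 arrays differ by design only in PDGF. Inhibitor effects under PDGF used the quiescent arrays as 1 group, so their spread holds inhibitor effects without PDGF, and a condition with 1 array was assumed to vary like them. The fits were tested on simulated data with known changes. The share of changes recovered is not reported here, so an effect that was not called is not read as absent. Alternatives were other scaling, pseudocounts and filters, no variance trend, no pair block, other inhibitor models and each array left out.

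The member genes and all gene lists were chosen with earlier results of these data known. All 7 genes are named in each comparison. Of other lists, genes past the threshold were named, up to 5 per list and fit. The genes named for SU6656 ranks were chosen after their values were seen.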

Additional observations from a re-analysis of the deposited data

How the results depend on the processing

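With 1 array per condition in each experiment, no single condition has a replicate, and low signal over background limits the ratios of Cxcl1, Cxcl5 and Cxcl10 in the 8-array table and of Cxcl10 in the other. The count of member genes called with PDGF was 2 in the 8-array table and 3 in the 9-array table. Without the variance trend it was 1 and 2, Ccl2 being the gene no longer called, and under every other alternative run, each array left out included, it was 2 and 3. No called value changed sign. The pair block changed no member call: without the pair block the counts were also 2 and 3. No member gene was called for an inhibitor under any alternative run.

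Counts over all probe sets moved more. For PDGF the 8-array table gave 525 calls, against 175 without the variance trend, 241 without the pair block and 264 to 386 with 1 array left out. Without the PDGF array it was 264, without vehicle 266, without SU6656 332, without LY294002 336, without PDGF and LY294002 341 and without PDGF and SU6656 344. The split of higher and lower calls was 397 and 128, and with scaling to a common median it was 579 and 65. The 9-array table gave 150 calls, against 63 without the variance trend and 101 to 116 with 1 array left out. With additive inhibitor terms 17 probe sets were called for SU6656, 7 for UO126 and 81 for LY294002 in the 8-array table, against 0 in each with the quiescent arrays as 1 group. The SU6656 effect of Ccl2 in that table was −1.63 to −0.29 over the alternatives that keep every array, the weakest in the additive fit. Without the PDGF array of the repeat the PDGF effect of Ccl2 in the 9-array table was 2.95, against 3.73. The causes of these shifts were not tested.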

Other observations

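Among all 5537 genes kept in both tables, 10 were at least 2-fold lower with SU6656 under PDGF in both experiments. Beside the 6 named above these were Wnt10a (−1.45 and −1.67), Npy (−1.39 and −1.85), Hmgcs1 (−1.32 and −1.13) and Pikfyve (−1.42 and −1.13), genes with PDGF responses of 0.03 to 0.93 in the MEK experiment. They were named after their values were seen, and no test was made.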
